A study of Mus musculus with 36 samples.

Results

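CTCF and the cohesin machinery were followed through 36 RNA-seq libraries of mouse forelimb as 9 autosomal genes. These are Ctcf, the cohesin subunits Rad21, Smc3 and Stag1, the loader pair Nipbl and Mau2, and the cohesin regulators Wapl, Pds5a and Pds5b. They were taken by gene name from the deposited table of FPKM values and joined by Ensembl identifier to the deposited table of read counts, where all 9 were found among 50833 genes. Every library came from B6CBAF1 embryos at stage E12.5, and each holds the distal or the proximal part of the forelimbs of 1 embryo. Besides wild type (WT) there were 5 CRISPR/Cas9 alleles that take away CTCF binding sites (CBS) of the Hoxd cluster one after another. They run from Del(CBS1), with 1 site gone, over Del(CBS1-2), then Del(CBS1-3) and next Del(CBS1-4), to Del(CBS1-5). For each genotype 3 embryos gave a distal and a proximal library. Zygosity is not given in the sources used here. The alleles remove sites to which CTCF binds and leave the gene for CTCF itself in place, and none of the 9 genes lies on chromosome 2, which carries the Hoxd cluster.

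Cohesin is a ring-shaped protein complex that holds DNA inside it. SMC1A and SMC3 form the arms of the ring, RAD21 closes it, and STAG1 or STAG2 binds to RAD21. NIPBL with MAU2 helps to load the ring and keeps it extruding a loop of chromatin, whereas WAPL, acting together with PDS5A or PDS5B, opens the ring and releases it. CTCF, a zinc finger protein bound to its sites in a given orientation, stops the moving ring and thereby sets the borders of loops. In limb buds such loops and borders determine which enhancers the Hoxd genes contact, and cohesin also holds sister chromatids together in dividing cells.

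The libraries held 11062069 to 17727891 counts each, of which the 9 genes took 0.19% to 0.251%. The member with the fewest reads in any library still had 1517 counts. The tissue labels matched their markers. All 6 genes listed for distal identity (Hoxa13, Hoxd13, Hoxd12, Msx1, Lhx2 and Sp8) were higher in distal than in proximal WT tissue, and all 6 listed for proximal identity (Meis1, Meis2, Tbx15, Shox2, Emx2 and Pkdcc) were lower. Distal and proximal libraries of the same genotype and number came from the same embryo by 2 signs in the data: their sex, read from X- and Y-linked genes, matched in 18 of 18 cases, and each distal library deviated from its group most like the proximal library of its own number.

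All 9 genes were expressed in every library. Levels between genes are compared here as deposited FPKM, which accounts for gene length. Rad21 was the most abundant member in both tissues, with an FPKM of 92.9 ± 3.19 (SD, n = 3) in distal WT and 73.3 ± 0.64 in proximal WT tissue. Pds5a (48.3 ± 0.935) and Ctcf (47.1 ± 1.21) followed in distal WT tissue, with overlapping libraries, and then Smc3 at 40.7 ± 0.88. Wapl (29.7 ± 2.1), Stag1 (25.2 ± 1.19), Pds5b (25 ± 0.912), Mau2 (23.4 ± 1.24) and Nipbl (20.3 ± 1.09) formed the lower part of the distal order. Within it Stag1 overlapped Pds5b, Pds5b overlapped Mau2, and Nipbl lay below all others. In proximal WT tissue Ctcf (36.2 ± 1.55) and Pds5a (34.6 ± 0.575) overlapped, and Smc3 followed at 32.7 ± 0.304. Pds5b came next by its mean, at 26.2 ± 0.241. Wapl, Mau2 and Stag1 had 24 ± 3.04, 22.9 ± 0.561 and 22.1 ± 0.777 with overlapping libraries, and Nipbl was again lowest at 16.6 ± 0.986. The 2 remaining somatic subunits, Smc1a and Stag2, are X-linked and were measured by FPKM alone. Smc1a came second after Rad21 in both tissues (55.2 ± 2.7 distal and 45.3 ± 1.87 proximal in WT), and Stag2 lay near Stag1 (28.4 ± 1.17 and 24.8 ± 2.53).

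**Figure D1:**
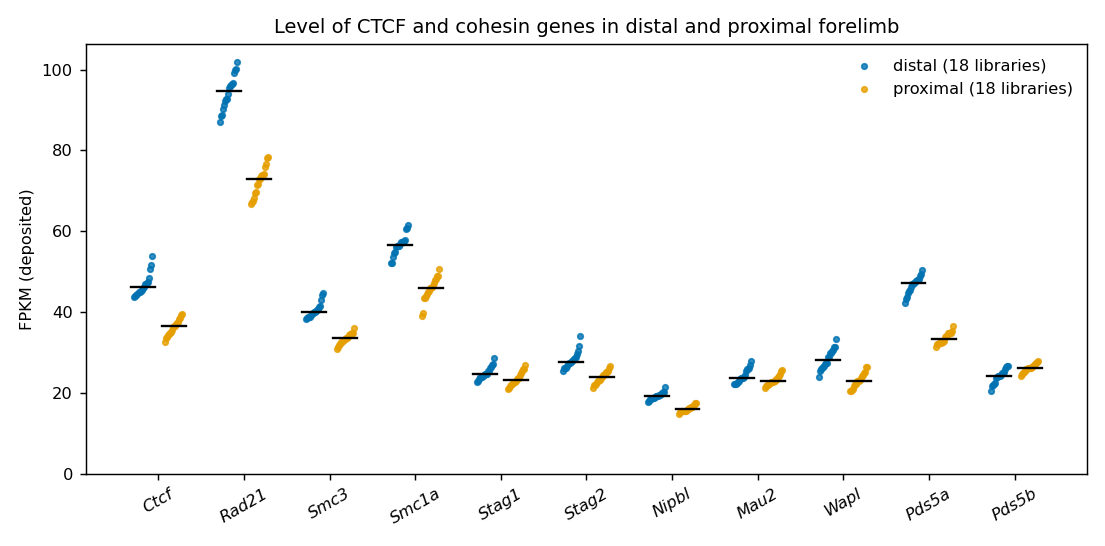
Deposited FPKM (vertical axis, linear from 0) of the 9 members and of the X-linked subunits Smc1a and Stag2 in each of the 18 distal and 18 proximal libraries of all 6 genotypes; points are libraries and bars are medians. Rad21 is highest in both tissues (medians 94.6 and 72.9), and Pds5b is the one gene whose proximal median (26.1) lies above its distal median (24.2).

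The first comparison asked how the machinery differs between the distal and the proximal forelimb of WT embryos. Of the 9 members, 6 were higher in distal tissue and none was lower: Ctcf, Rad21, Smc3, Nipbl, Wapl and Pds5a, by 1.18-fold to 1.38-fold. Stag1, Mau2 and Pds5b did not pass the test, which was edgeR's quasi-likelihood test with Benjamini-Hochberg adjustment over all genes at 0.05. Among all 14918 genes tested, 30.7% were called, and 13.6% of the genes tested were called as higher in distal tissue. The median log2 fold change was 0.27 over the members and 0.00 over all genes. In bulk tissue a change in the share of cells that express a gene and a change in RNA per cell cannot be told apart.

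Ctcf (ENSMUSG00000005698, chromosome 8 of mm10, 105636579 to 105682922, plus strand) encodes the insulator protein. Its counts scaled to library size (CPM) were 250, 270 and 264 in the 3 distal WT libraries, and 194, 209 and 206 in the proximal libraries of the same embryos. Every distal library lay above every proximal one, a log2 fold change of 0.36 ± 0.05 (SE; adjusted p = 0.00133, edgeR). Over all 18 embryos the distal value was higher in 18, by a log2 difference of 0.26 to 0.47. An exon of Ctcf overlaps Agrp and Gm5914, and the sources used here do not give whether reads were counted by strand, so a share of its reads could belong to these genes.

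Rad21 (ENSMUSG00000022314, chromosome 15, 51962240 to 51991747, minus strand) encodes the subunit that closes the ring and that separase cuts at anaphase. Its CPM values were 516, 567 and 544 in distal WT libraries against 434, 433 and 432 in proximal ones. The groups did not overlap, and the log2 fold change was 0.32 ± 0.05 (adjusted p = 0.0018). Smc3 (ENSMUSG00000024974, chromosome 19, 53600398 to 53645833, plus strand), one arm of the ring, had 276, 288 and 298 CPM against 233, 234 and 233. Again all distal libraries were higher, with a log2 fold change of 0.30 ± 0.05 (adjusted p = 0.00204). Stag1 (ENSMUSG00000037286, chromosome 9, 100597798 to 100958545, plus strand) binds RAD21 in the alternative to Stag2. It gave 187, 181 and 183 CPM in distal and 168, 175 and 175 in proximal WT libraries, a log2 difference of 0.09 ± 0.05 that did not pass the test (adjusted p = 0.213). The 95% interval of that difference ran from -0.01 to 0.18. Smc1a, tested on log2(FPKM + 1) with limma, was higher in distal tissue by 0.28 ± 0.06 (adjusted p = 0.0095), where 28.9% of all genes were called. For Stag2 the difference was 0.19 ± 0.08 (adjusted p = 0.119), and for the X-linked Hdac8, whose product removes the acetyl mark from SMC3, it was 0.27 ± 0.11 (adjusted p = 0.108).

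Nipbl (ENSMUSG00000022141, chromosome 15, 8290617 to 8444463, minus strand) encodes the large subunit of the loader, whose loss of a single copy causes limb defects in Cornelia de Lange syndrome. Its distal WT libraries had 275, 302 and 273 CPM and the proximal ones 221, 244 and 239. There was no overlap, and the log2 fold change was 0.27 ± 0.06 (adjusted p = 0.0123). Mau2 (ENSMUSG00000031858, chromosome 8, 70016123 to 70042734, minus strand) encodes the partner of NIPBL in the loader. Its values of 145, 158 and 149 CPM in distal and 150, 145 and 146 CPM in proximal tissue overlapped, with a log2 difference of 0.04 ± 0.05 (adjusted p = 0.655). The 95% interval of the Mau2 difference was -0.07 to 0.14, which lies below the fitted value for Nipbl.

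Wapl (ENSMUSG00000041408, chromosome 14, 34673928 to 34747983, plus strand) encodes the release factor. Its CPM values were 171, 176 and 177 in distal WT libraries and 135, 155 and 153 in proximal ones. All distal libraries exceeded all proximal libraries, and the log2 fold change was 0.24 ± 0.06 (adjusted p = 0.0193). That call was lost in 5 of 15 other settings, where the adjusted p reached 0.14: the 3 fits on FPKM, and the fits without distal WT replicate 3 or proximal WT replicate 1. It was kept in the fit that blocks on the embryo (adjusted p = 0.0035). Pds5a (ENSMUSG00000029202, chromosome 5, 65605721 to 65698168, minus strand) showed the largest tissue difference of the 9. It had 281, 299 and 293 CPM in distal and 210, 206 and 214 CPM in proximal tissue, a log2 fold change of 0.47 ± 0.05 (adjusted p = 0.000201) with no overlap. Exons of Pds5a overlap the gene models Gm42727 and Gm42729, with the same limit on counting as for Ctcf. Its paralog Pds5b (ENSMUSG00000034021, chromosome 5, 150673739 to 150810690, plus strand) had 238, 235 and 235 CPM in distal and 249, 254 and 253 CPM in proximal WT libraries. These values did not overlap and were lower in distal tissue, but the log2 difference of -0.10 ± 0.04 did not pass the test over all genes (adjusted p = 0.141).

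Averaged over the 6 genotypes in a fit of all 36 libraries, 8 of the 9 members were called, against 68.6% of the 16292 genes tested there. Of these, 7 were higher in distal tissue, where 34.4% of all genes were. Pds5b was the one called lower (34.2% of all genes), by -0.12 ± 0.02 (log2, edgeR adjusted p = 3.68e-06). Mau2 was higher by 0.05 ± 0.02 (adjusted p = 0.015). Stag1, at 0.05 ± 0.03, did not pass (adjusted p = 0.121). The distal library had the higher CPM in 18 of 18 embryos for Ctcf, Rad21, Smc3, Nipbl, Wapl and Pds5a. The corresponding counts were 14 of 18 for Stag1, 12 for Mau2 and 3 for Pds5b. Smc1a and Stag2 were higher by FPKM in 18 of 18 embryos each. The share of all genes with the same direction in all 18 embryos was not counted, so these counts are a description. With all genotypes the X-linked genes passed the limma test, at a log2 difference of 0.31 ± 0.02 for Smc1a (adjusted p = 4.59e-13) and 0.23 ± 0.03 for Stag2 (adjusted p = 9.14e-08), where 68.9% of genes were called.

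**Figure D2:**
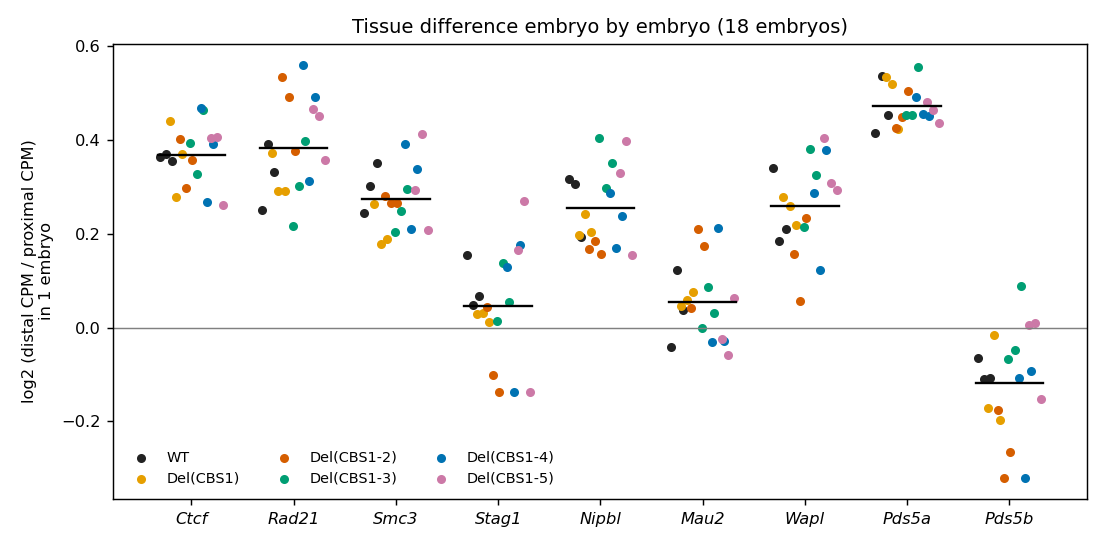
Log2 ratio of distal to proximal CPM within each of the 18 embryos (vertical axis, 0 means no difference) for the 9 members; points are embryos coloured by genotype, with 3 per genotype, and bars are means. All 18 embryos lie above 0 for Ctcf, Rad21, Smc3, Nipbl, Wapl and Pds5a, whereas Stag1 and Mau2 straddle 0 and 15 of 18 lie below 0 for Pds5b.

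PDS5A and PDS5B are close paralogs that bind the same place on the cohesin ring, where they take part both in release by WAPL and in holding acetylated, stable rings. Since their transcripts went opposite ways, the upstream sequence of each is shown, so that a reader can compare what lies before the start of each gene. The sequences are from RefSeq on GRCm38.p6 and run 5′ to 3′ on the strand of the gene. They were cut at the outermost annotated start of the gene, so that none of its own exons is included. Exons of other genes were not checked. Capitals mark matches, on either strand, to the 8 motifs searched: the CCAAT box, the ETS core CCGGAAG, the Sp1 and KLF motif GGGCGG, the NRF1 core CGCATGC, the YY1 core ATGGCGG, the E2F motif TTCCCGC with its other form TTGGCGC, and the letters CCCTC from the CTCF motif.
Pds5a, chr5:65698274-65698486, minus strand: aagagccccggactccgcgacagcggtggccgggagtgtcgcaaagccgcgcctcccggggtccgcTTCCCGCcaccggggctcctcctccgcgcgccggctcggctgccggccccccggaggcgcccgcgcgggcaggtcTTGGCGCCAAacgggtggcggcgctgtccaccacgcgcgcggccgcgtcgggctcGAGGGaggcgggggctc
Pds5b, chr5:150673577-150673712, plus strand: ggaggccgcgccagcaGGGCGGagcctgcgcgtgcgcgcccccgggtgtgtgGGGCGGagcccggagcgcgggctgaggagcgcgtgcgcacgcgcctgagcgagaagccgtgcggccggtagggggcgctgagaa
The Pds5a window holds 1 match to TTCCCGC, which is found in 3.18% of 32851 promoter windows of that length. It also holds 2 matches to TTGGCGC (1.6% of windows), which overlap each other on opposite strands, and 1 to CCCTC (54.1%). The Pds5b window, which is shorter, holds 2 matches to GGGCGG (14.8% of windows of its length) and none to the other 7 motifs. The shares cover the first bases of each 250-base upstream window, up to the length of the stretch shown. They therefore leave out the bases nearest the start in those windows. A match is a string of letters in the stretch shown and not a measured binding site.

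Over all embryos the balance of the paralogs was not the same in the 2 tissues. The ratio of Pds5a to Pds5b FPKM was 1.94 ± 0.12 (SD over 18 libraries, range 1.75 to 2.18) in distal tissue and 1.28 ± 0.06 (range 1.17 to 1.37) in proximal tissue. The ranges did not overlap, and the distal ratio was higher in 18 of 18 embryos. A two-sided permutation test that swaps the tissues within embryos gave p = 2e-05, the smallest that the resamples can give, and 7e-05 after adjustment over 7 ratios. The 7 ratios were chosen after the values of the genes had been seen, so their p-values are no independent support. Between these tissues 68.6% of all genes were called in the mean over genotypes. How often the ratio of other pairs of genes differs was not counted. In every genotype the distal mean lay above the proximal mean, from 1.83 in Del(CBS1-3) to 2.05 in Del(CBS1-4) in distal tissue, and from 1.23 in Del(CBS1-2) to 1.33 in Del(CBS1-5) in proximal tissue.

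**Figure D3:**
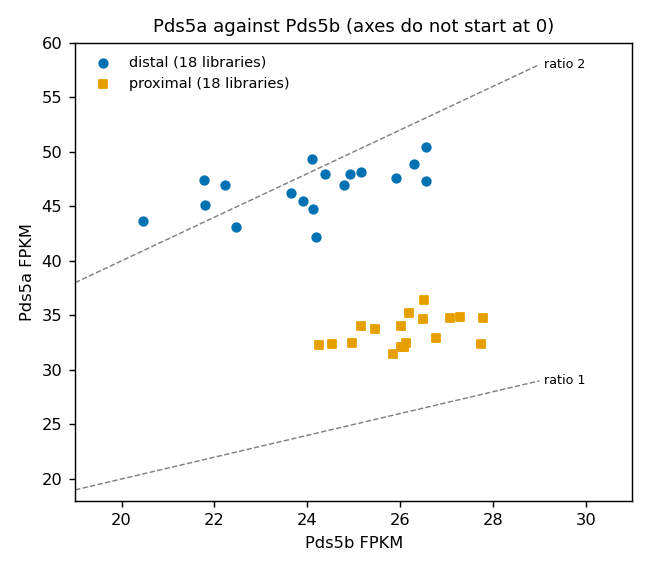
Pds5a FPKM (vertical axis) against Pds5b FPKM (horizontal axis) in the 36 libraries, with dashed lines at ratios of 1 and 2; neither axis starts at 0. The 18 distal libraries lie around the line of ratio 2 (1.75 to 2.18) and the 18 proximal libraries lie nearer to the line of ratio 1 (1.17 to 1.37).

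Other partners within the complex shifted less. The loader ratio Nipbl to Mau2 was 0.799 ± 0.08 in distal and 0.697 ± 0.05 in proximal tissue, and it was higher distally in 15 of 18 embryos (permutation p adjusted over the 7 ratios, 0.000187). In WT alone the Nipbl to Mau2 means were 0.869 and 0.727. Rad21 to Smc3 was 2.34 ± 0.09 against 2.17 ± 0.09 (17 of 18 embryos, adjusted permutation p = 7e-05). In WT alone its means were 2.29 and 2.24, with overlapping libraries. Stag2 to Stag1 was 1.13 ± 0.08 against 1.02 ± 0.09 (15 of 18, adjusted permutation p = 0.000665), and Smc1a to Smc3 was 1.4 ± 0.06 against 1.37 ± 0.06 (14 of 18, adjusted permutation p = 0.0356). These last shifts were not seen in WT alone, where the distal and proximal means were 1.13 and 1.12 for Stag2 to Stag1. For Smc1a to Smc3 the WT means were 1.36 and 1.39, in the other direction. For Nipbl to Wapl, the loader against the release factor, the values were 0.68 ± 0.05 and 0.7 ± 0.06 (adjusted permutation p = 0.285). For Ctcf to Rad21 they were 0.496 ± 0.02 and 0.5 ± 0.02 (adjusted permutation p = 0.571). A difference between the tissues was thus not shown for Nipbl to Wapl and Ctcf to Rad21.

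Genes that act on or beside cohesin were counted as background in the same WT comparison. Of 9 tested genes for acetylation, protection and cleavage of cohesin, 5 were higher in distal tissue and none was lower. Among them were Esco2, the acetyltransferase of S phase (log2 fold change 0.68 ± 0.08), Cdca5, which encodes the protector sororin (0.67 ± 0.09), and Espl1, which encodes separase (0.49 ± 0.08). Of 8 condensin genes 7 were higher, among them Ncapg2 (0.58 ± 0.06), Smc2 (0.47 ± 0.05) and Smc4 (0.54 ± 0.07). Of 10 tested CTCF partners and other looping factors 6 were higher, among them Parp1 (0.40 ± 0.06), Ddx5 (0.28 ± 0.05) and Patz1 (0.32 ± 0.06). Ctcfl, the germ cell paralog of Ctcf, was under the count filter. In the related SMC5/6 complex 1 of 6 genes was higher, Nsmce4a (0.32 ± 0.05). Neither of the 2 tested meiotic subunits, Rec8 and Stag3, passed.

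Markers of cycling cells and of other cell types moved with the tissues. All 16 listed proliferation genes were higher in distal WT tissue, with a summed level of 5193 to 5577 CPM in distal and 3689 to 4169 CPM in proximal libraries. All 14 skeletal muscle genes were lower, at 34.4 to 38.1 CPM against 2123 to 2493 CPM. Of 12 chondrogenesis genes 8 were lower and 2 higher, with sums of 2335 to 2723 CPM against 4353 to 4636 CPM. Nerve and Schwann cell genes were lower in 7 of 8 cases (130 to 142 CPM against 302 to 317 CPM), whereas 6 of 10 surface ectoderm genes were higher and 1 was lower (544 to 559 CPM against 360 to 498 CPM). None of these markers was at 0 in a whole WT group. Their part in the differences of the 9 members was not tested.

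The second comparison asked whether the machinery that reads the CTCF sites differs between embryos with the alleles and WT embryos. The labels give no litter or batch, so an effect of the lost sites cannot be told apart from such differences between groups. In distal tissue 3 of 9 members varied with genotype in an F test over the 5 alleles, Nipbl (edgeR adjusted p = 0.0266), Wapl (0.0371) and Pds5b (0.00574), where 19.7% of all genes did. None of the 3 passed with a muscle score, the mean log2 CPM of 14 skeletal muscle genes, as a covariate (adjusted p = 0.089 to 0.214) or with limma on FPKM without a filter (0.086 to 0.206). With a replicate block only Pds5b passed (0.0131, beside 0.0503 for Nipbl and 0.0612 for Wapl). Del(CBS1-2) was the one allele in which single members passed against WT, which does not by itself show a difference from the other alleles. In Del(CBS1-2) 4 of 9 were lower in distal tissue, Nipbl, Wapl, Pds5a and Pds5b, at 0.846 to 0.892 of the WT level, and none was higher. Of all 15361 genes 10.5% were called in that comparison, and 5.99% as lower. The members' median log2 fold change was -0.16 beside 0.00 over all genes.

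Nipbl had 275, 302 and 273 CPM in the distal WT libraries and 250, 253 and 249 CPM in those of Del(CBS1-2). The groups did not overlap, and the 3 mutant values lay close together (log2 fold change -0.20 ± 0.04, edgeR adjusted p = 0.00726). Wapl fell from 171, 176 and 177 CPM to 159, 144 and 160 CPM, again without overlap (-0.20 ± 0.05, adjusted p = 0.0253). Its second mutant library was the lowest. Without that library the log2 fold change of Wapl was -0.15 and the call was lost (adjusted p = 0.142), as it was without WT replicate 2 (0.0681) or WT replicate 3 (0.0576). Pds5a went from 281, 299 and 293 CPM to 262, 258 and 271 CPM, also without overlap (-0.16 ± 0.04, adjusted p = 0.0256). Its call was lost without WT replicate 2 (0.0897) or 3 (0.0532) and without mutant replicate 1 (0.0789) or 2 (0.112), whereas Nipbl and Pds5b were called whichever of the 6 libraries was left out. Over all alternatives Pds5b was called in 16 of 17 and Nipbl in 14 of 17. In a fit of the compared groups alone Nipbl (0.0582), Wapl (0.0621) and Pds5a (0.0681) did not pass, and Pds5b did (0.0223). Pds5b showed the largest difference, from 238, 235 and 235 CPM to 212, 194 and 203 CPM (-0.24 ± 0.05, adjusted p = 0.00546). All 3 mutant libraries were below all other distal groups except Del(CBS1-4), which reached down to 209 CPM.

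The remaining members did not pass in distal Del(CBS1-2). Stag1 had 172, 169 and 156 CPM against 187, 181 and 183 CPM in WT (-0.17 ± 0.06, adjusted p = 0.0891). By FPKM, however, its mean was 25.3 in the mutant and 25.2 in WT, so the difference in Stag1 depends on the deposited unit. Ctcf (-0.11 ± 0.05, adjusted p = 0.195) and Smc3 (-0.09 ± 0.05, adjusted p = 0.218) were on the same side of 0. Rad21, at 563, 559 and 518 CPM against 516, 567 and 544 CPM, differed by -0.01 ± 0.05, with a 95% interval of -0.11 to 0.08. Mau2 differed by 0.00 ± 0.06. By limma on FPKM, Smc1a differed by 0.02 ± 0.05 and Stag2 by -0.12 ± 0.07, and neither passed (adjusted p = 0.792 and 0.319).

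Markers of other tissue moved with the same contrast. The summed level of the 14 skeletal muscle genes was 34.4 to 38.1 CPM in distal WT and 75 to 149 CPM in distal Del(CBS1-2) libraries, with 2 of 14 genes called higher and none lower. For the 12 chondrogenesis genes it was 2335 to 2723 CPM against 3424 to 3559 CPM, with 2 called higher. Of 7 nerve and Schwann cell genes 2 were higher (130 to 142 CPM against 172 to 179 CPM), and of 10 macrophage genes 2 were higher (55.3 to 84.8 CPM against 81.8 to 91.2 CPM). Of 10 surface ectoderm genes 2 were higher and 1 lower (544 to 559 CPM against 647 to 755 CPM), and of 10 erythroid genes 2 were lower (2622 to 3665 CPM against 2292 to 2429 CPM). Proliferation genes summed to 5193 to 5577 CPM in WT and 5144 to 5192 CPM in the mutant. With the muscle score as a covariate only Pds5b remained called (-0.25, adjusted p = 0.0449). In that edgeR fit the log2 fold changes were -0.18 for Nipbl (adjusted p = 0.0818), -0.20 for Wapl (0.128) and -0.11 for Pds5a (0.265). The score itself did not overlap between the groups, at 0.50 to 0.69 in distal WT and 1.70 to 2.57 in distal Del(CBS1-2). This covariate therefore cannot separate muscle content from genotype in this contrast. The part of the other markers was not tested. Among embryos with Del(CBS1-2) 3 of 3 were females, and among WT embryos 2 of 3. With embryo sex as a covariate all 4 members were still called (adjusted p = 0.00692 to 0.0389).

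Of the related lists most genes did not pass in distal Del(CBS1-2), where 5.99% of all genes were called lower. Condensin had 3 of 8 genes called lower, Smc4 (-0.30 ± 0.06), Ncapg2 (-0.24 ± 0.07) and Ncapg (-0.26 ± 0.08). Among 9 genes of acetylation, protection and cleavage 3 were lower, Pttg1, which encodes the separase inhibitor securin (-1.34 ± 0.27), and the acetyltransferases Esco1 (-0.40 ± 0.08) and Esco2 (-0.38 ± 0.08). Of 10 CTCF partners 2 were lower, Ddx5 (-0.20 ± 0.04) and Top2b (-0.18 ± 0.05), and of 6 genes of the SMC5/6 complex none passed. No gene of these lists was called higher. Of 16 proliferation genes 3 were lower and 1 was higher.

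**Figure D4:**
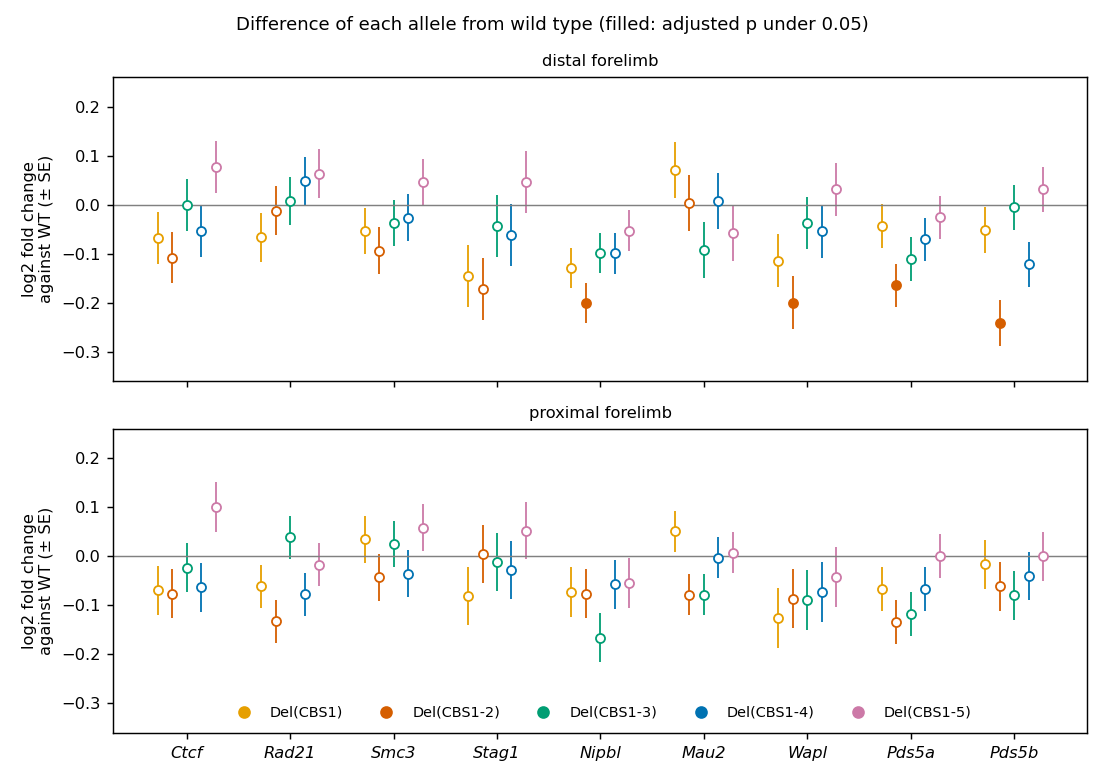
Log2 fold change of each allele against WT (vertical axis, points with bars of 1 SE from edgeR) for the 9 members in distal (top) and proximal (bottom) forelimb; the 5 colours are the alleles, filled points passed the test at an adjusted p of 0.05, and all alleles of a tissue share the same 3 WT libraries. The 4 filled points are Nipbl, Wapl, Pds5a and Pds5b in distal Del(CBS1-2), between -0.24 and -0.16.

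No member passed the test against WT in the other 4 alleles in distal tissue or in any of the 5 alleles in proximal tissue (edgeR, adjusted p). DESeq2 also called none in these 9 comparisons. At an unadjusted p under 0.05 the distal counts were 3 of 9 in Del(CBS1), 2 in Del(CBS1-3), 2 in Del(CBS1-4) and 0 in Del(CBS1-5), and the proximal counts were 0, 2, 2, 0 and 0 in the order of the series. At that unadjusted threshold stood 9.69%, 13.9%, 15.3% and 13.1% of all genes in the distal comparisons, and 7.1%, 19.5%, 13.1%, 14.1% and 6.48% in the proximal ones. After adjustment few genes of any kind were called there. The distal shares of all genes were 0.0325% for Del(CBS1), 0.00651% for Del(CBS1-3), 0.0846% for Del(CBS1-4) and 0.0651% for Del(CBS1-5). The proximal shares were 0.0443%, 0.721%, 0.0696%, 0% and 0.0696% in the order of the series. The 5 comparisons of a tissue share their 3 WT libraries, so a high or low WT value moves all of them together.

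The size of the differences in these alleles was small. The log2 fold change of a member from WT lay between -0.15 and 0.08 in the 4 other alleles in distal tissue, and between -0.17 and 0.10 in proximal tissue. Ctcf itself ranged from 249 ± 8.21 CPM in Del(CBS1) to 278 ± 16.4 CPM in Del(CBS1-5) among these distal groups, beside 261 ± 10.2 CPM in WT. In proximal tissue it ranged from 193 ± 6.82 CPM in Del(CBS1-2) to 217 ± 5.87 CPM in Del(CBS1-5), beside 203 ± 7.68 CPM in WT. By distal group means Del(CBS1-2) was lowest for all members but Rad21 and Mau2, and Del(CBS1-5) was highest for all but Nipbl, Mau2 and Pds5a. The share of all genes with the same order was not counted, and the members are correlated with one another. This order is therefore a description only. For Nipbl the WT mean was the highest of the 6 genotypes in both tissues. In distal tissue it was 283 ± 16.4 CPM in WT, 259 ± 3.55 in Del(CBS1), 251 ± 2.11 in Del(CBS1-2), 267 ± 7.32 in Del(CBS1-3), 265 ± 2.87 in Del(CBS1-4) and 276 ± 5 in Del(CBS1-5). The lowest proximal mean of Nipbl was 210 ± 5.9 CPM in Del(CBS1-3), against 235 ± 12.3 CPM in WT (-0.17 ± 0.05, adjusted p = 0.187). In proximal tissue as a whole none of the 9 members varied with genotype in the F test (edgeR, 15.1% of genes called), whereas 4 had an unadjusted p under 0.05, beside 34.6% of all genes, and DESeq2 called 2, beside 22.9% of all genes.

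**Figure D5:**
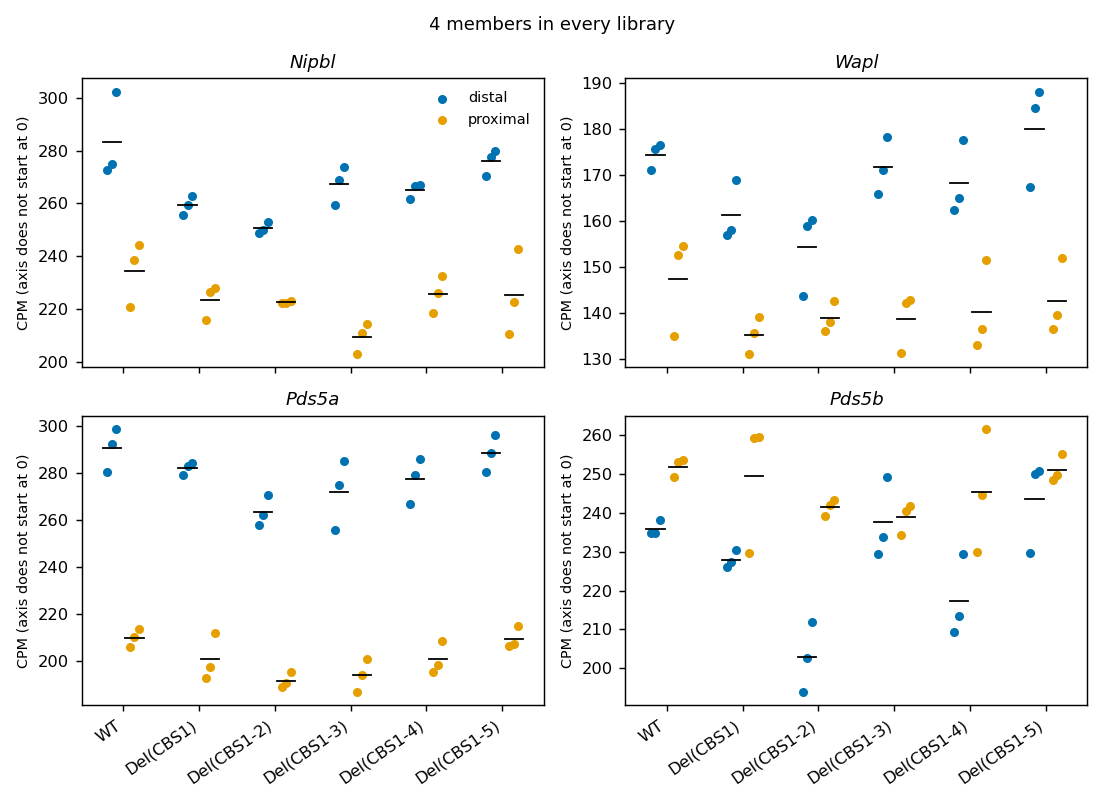
CPM of Nipbl, Wapl, Pds5a and Pds5b in every library by genotype (horizontal axis) and tissue (colour); points are libraries, bars are means of 3, and the vertical axes do not start at 0. In distal tissue the Del(CBS1-2) libraries lie below all WT libraries for each of the 4 genes, and for Pds5b (194 to 212 CPM) also below those of every other genotype except Del(CBS1-4). In proximal tissue they lie below all WT libraries for Pds5a and Pds5b, which were not called there. The share of all genes without overlap was not counted.

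Each allele was then compared with the one before it in the series. Here too the loss of the next site cannot be told apart from other differences between the groups of embryos, such as litter or batch. Pds5b was the one member called in distal tissue, and it was called at 3 of the 4 steps, once as lower and otherwise as higher. It had 230, 227 and 226 CPM in Del(CBS1), 212, 194 and 203 in Del(CBS1-2), 229, 234 and 249 in Del(CBS1-3), 213, 209 and 229 in Del(CBS1-4), and 251, 250 and 230 in Del(CBS1-5). At the step to Del(CBS1-2) it differed by -0.19 ± 0.05 (edgeR adjusted p = 0.0387, 2.47% of genes called and 1.25% lower), without overlap of the libraries. At the step to Del(CBS1-3) it was higher by 0.24 ± 0.05 (adjusted p = 0.00955, 6.53% called and 2.94% higher), also without overlap. At the step to Del(CBS1-4), where 10.7% of genes were called, no member passed with edgeR or DESeq2, and 1 of 9, Pds5b at -0.12 ± 0.05, had an unadjusted p under 0.05, beside 28.4% of all genes. At the step to Del(CBS1-5) Pds5b was higher by 0.15 ± 0.05 (adjusted p = 0.0326, 16.7% called and 7.74% higher), again without overlap, although the lowest library of Del(CBS1-5) lay within 1 CPM of the highest of Del(CBS1-4). The first of these calls was lost when any of the 6 libraries involved was left out. The call at Del(CBS1-3) was lost without replicate 2 of Del(CBS1-2) or replicate 3 of Del(CBS1-3), and the call at Del(CBS1-5) without replicate 1 or 2 of either group. The summed level of the chondrogenesis genes was 2408 to 2637 CPM in distal Del(CBS1), 3424 to 3559 in Del(CBS1-2), 2136 to 3363 in Del(CBS1-3), 3033 to 3560 in Del(CBS1-4) and 2026 to 2628 in Del(CBS1-5). The ranges of Del(CBS1-3) and Del(CBS1-4) overlapped. Skeletal muscle genes summed to 23.3 to 102 CPM in Del(CBS1), 75 to 149 in Del(CBS1-2), 18.1 to 73.6 in Del(CBS1-3), 40.3 to 126 in Del(CBS1-4) and 19.1 to 32 in Del(CBS1-5). These sums overlapped at the steps to Del(CBS1-2) and Del(CBS1-4), and were lower without overlap at the steps to Del(CBS1-3) and Del(CBS1-5). With the muscle score as a covariate, an alternative chosen after seeing the data, the log2 differences of Pds5b at its 3 called steps were -0.20, 0.25 and 0.17, and none passed (adjusted p = 0.141, 0.074 and 0.142). At the steps to Del(CBS1-3) and Del(CBS1-5) the score did not overlap between the groups, so this fit cannot separate muscle content from genotype there. The part of the chondrogenesis genes was not tested.

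In proximal tissue 2 different members passed at a step. Rad21 had 389, 397 and 399 CPM in Del(CBS1-2) and 455, 443 and 439 CPM in Del(CBS1-3), an increase of 0.17 ± 0.04 without overlap (edgeR adjusted p = 0.0301, 7.27% of genes called and 3.9% higher). Ctcf had 188, 211 and 185 CPM in Del(CBS1-4) and 222, 211 and 218 CPM in Del(CBS1-5), an increase of 0.16 ± 0.05 (adjusted p = 0.0448, 10.3% called and 4.74% higher). The second Del(CBS1-4) library reached the lowest Del(CBS1-5) library to within 1 CPM. Both calls were lost in 5 of the 6 fits that leave out a library. The call of Rad21 was kept without the second Del(CBS1-3) library, and that of Ctcf without the second Del(CBS1-4) library. The other steps called no member with edgeR or DESeq2, where 1.49% (to Del(CBS1-2)) and 13.8% (to Del(CBS1-4)) of genes were called, and 1 and 2 members had an unadjusted p under 0.05, beside 20.2% and 30.2% of all genes. Beside the increase of Rad21, 10 of 16 proliferation genes were higher in Del(CBS1-3) than in Del(CBS1-2), with sums of 3770 to 4221 CPM against 3270 to 3392 CPM, and 3 of 12 chondrogenesis genes were lower (4003 to 5017 CPM against 5665 to 5810 CPM). Of 8 condensin genes 2 were higher, Smc4 (0.28 ± 0.07) and Ncapg2 (0.30 ± 0.08), as was Pttg1 (0.84 ± 0.22). Beside the increase of Ctcf, 11 of 16 proliferation genes were higher in Del(CBS1-5) than in Del(CBS1-4), at 3970 to 4275 CPM against 3206 to 3752 CPM, and 7 of 12 chondrogenesis genes (3660 to 4758 CPM against 4935 to 6832 CPM) and 3 of 14 muscle genes (1902 to 2379 CPM against 2142 to 2942 CPM) were lower. Here the CTCF partners Parp1 (0.24 ± 0.06) and Patz1 (0.24 ± 0.06) were higher too, together with the condensin gene Ncaph2 (0.17 ± 0.05) and Espl1 (0.29 ± 0.08). With the muscle score as a covariate the difference of Rad21 was 0.17 (adjusted p = 0.0403), and that of Ctcf was 0.11 and did not pass (adjusted p = 0.334). The score did not overlap between proximal Del(CBS1-4) and Del(CBS1-5), so for Ctcf this fit cannot separate muscle content from genotype. The part of the other markers in the steps was not tested.

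Whether an allele acted differently in the 2 tissues was tested as an interaction over all 36 libraries. No member passed for any of the 5 alleles with edgeR or DESeq2. The shares of all genes called were 0%, 0.0491%, 0.00614%, 0.0184% and 0% in the order of the series. For Del(CBS1-2) 2 members had an unadjusted p under 0.05, beside 11.1% of all genes, and none had one for the other alleles. Pds5b was lower by a further -0.16 ± 0.07 in distal tissue (95% interval -0.29 to -0.03, adjusted p = 0.368), and Rad21 was higher by 0.14 ± 0.07 (0.01 to 0.27, adjusted p = 0.403). The distal decrease of Nipbl, Wapl, Pds5a and Pds5b was therefore not shown to differ from the proximal values of -0.08, -0.09, -0.13 and -0.06.

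Between embryos of the same group the members varied little. Their SD of log2 CPM within groups ran from 0.05 for Pds5a to 0.08 for Stag1, with a median of 0.06, beside a median of 0.07 over 1491 genes of like level. Over the 36 libraries the 36 pairs of members had Pearson correlations of log2 CPM from -0.50 to 0.96, which is a description, since these values share the libraries and the difference between tissues. Ctcf and Smc3 formed the closest pair (0.96), followed by Ctcf and Rad21 (0.95). All 8 negative pairs involved Mau2 or Pds5b. After the group means were removed, Ctcf and Rad21 still stood at 0.69, and Ctcf and Smc3 at 0.66. The pair of Stag1 and Pds5b became the closest at 0.71, whereas Mau2 stood at -0.66 with Pds5b and at -0.63 with Stag1. The 6 genes outside the set whose log2 CPM was most like the mean of the 9 standardised members, among 11020 genes, were Suz12 (0.97), Cnot6 (0.97), Top2b (0.96), Rfx7 (0.96), Trim59 (0.96) and Smc4 (0.96). Within the 18 distal libraries these correlations were 0.87 to 0.95, and within the 18 proximal libraries 0.75 to 0.81.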

How the data were processed

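Poly(A) RNA was read as single ends of 50 nucleotides from stranded TruSeq libraries, per the labels' protocols. The authors deposited whole-number read counts per gene and Cufflinks FPKM values, per the file headers. Tools named in the submitters' processing notes are STAR 2.7.0 and Cufflinks 2.2.1 besides bedtools 2.27.1 and cutadapt 1.16, and the build is mm10. The count table holds no genes of chromosomes X, Y or M, so X-linked genes were tested with limma 3.58.1 on log2(FPKM + 1), for genes with an FPKM of at least 1 in at least 3 libraries. A fold change on that scale understates the change of low genes.

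Counts were tested with edgeR 4.0.16 (R 4.3.3): TMM scaling, filterByExpr, quasi-likelihood F test, Benjamini-Hochberg adjustment over all genes, called under 0.05. Alleles were compared within each tissue by a fit of its 18 libraries, and tissues in the 6 WT libraries or in all 36. DESeq2 1.42.0, limma on FPKM, RLE or total-count scaling, no count filter, a replicate block, sex or a muscle score as a covariate, fits of the compared groups alone, and leaving out each library were the alternatives. CPM were scaled by TMM over all libraries. Scripts were tested on simulated counts. Between replicates chi-square was 2.66 to 21.2 per degree of freedom, above sampling noise, so each library counts as 1 embryo in the tests.

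Members and gene lists were chosen with earlier results of these data known. Named outside the members are up to 3 called genes per list with the smallest p in the WT tissue comparison, in distal Del(CBS1-2) and in the proximal steps with a called member, and the 6 genes most like the members. One such result is not reported here. Promoter sequences are from RefSeq (GRCm38.p6), where 7 of the 9 members were matched. Distal and proximal libraries of the same number pair by embryo: their deviations from the group means correlated at 0.23 to 0.76 for every pair, and at most at 0.14 for other pairs. Between genotypes the libraries of the same number correlated at -0.42 to 0.57 (22.2% over 0.1). Other numbers were not compared there, so pairing by number between genotypes was not shown.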

Additional observations from a re-analysis of the deposited data

How the results depend on the processing

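Of 4194 results of single members over all comparisons and alternatives, 4087 stayed on the same side of the threshold, 92 lost a call and 15 gained one. No called value changed sign, whereas 276 uncalled values did. The count of members called in WT distal against proximal tissue stayed at 5 to 6, and in the mean over genotypes at 7 to 9. In the comparisons between alleles the counts moved more, and apart from the fits with fewer samples the cause was not tested. For distal Del(CBS1-2) against WT the 4 calls became 2 with limma on log2(FPKM + 1) or log2(FPKM + 0.1), 0 without its filter, 1 with the muscle score and 1 with the compared groups alone. Leaving out 1 library gave 2 to 4, with 2 without WT replicate 2, WT replicate 3 or Del(CBS1-2) replicate 2. The 3 members varying with genotype in distal tissue became 5 with DESeq2, 0 with limma without a filter, 0 with the muscle score, and 1 to 4 when a library was left out. The proximal count of 0 became 2 with DESeq2, and 0 to 2 when a library was left out. The distal step to Del(CBS1-2) had 1 call, 0 with limma and 0 without any single library of the pair. The step to Del(CBS1-3) had 1, 0 with limma and 0 to 1 without a library. The step to Del(CBS1-5) had 1, 0 with total counts, 0 with limma and 0 to 2 without a library. In proximal tissue the step to Del(CBS1-3) had 1 call and 0 to 1 without a library, the step to Del(CBS1-4) 0 and 0 to 1, and the step to Del(CBS1-5) 1, which became 0 with RLE, 0 with total counts, 0 with limma and 0 to 1 without a library.

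With the muscle score, added for the steps after seeing the data, the distal steps to Del(CBS1-2), Del(CBS1-3) and Del(CBS1-5) and the proximal step to Del(CBS1-5) had 0 calls each.

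The replicate block on the embryo changed no call of a member between tissues. Between genotypes pairing by number was not shown. There the replicate block gave 1 call instead of 3 for distal tissue over all alleles. It gave 0 instead of 1 for the distal step to Del(CBS1-2), and 0 instead of 1 for the proximal step to Del(CBS1-5). All other counts of called members were within 1.5 times of those printed.

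The counts over all genes behind the shares also moved. In distal Del(CBS1-2) against WT they were 1606 with edgeR, 964 with limma (433 without its filter), 934 with the compared groups alone and 150 with the muscle score. Over all alleles they were 3022 in distal tissue (limma 1657, muscle score 443) and 2389 in proximal tissue (DESeq2 3620, no count filter 4257, limma 1471, sex 1504, muscle score 1104). For the steps with a called member they were 380 (no filter 1408, DESeq2 737, limma 162, block 135, sex 107, muscle score 18), 1003 (no filter 1798, limma 548, sex 219, muscle score 62) and 2563 (muscle score 85) in distal tissue, and 1150 (no filter 2012, limma 676, block 668, sex 143, muscle score 668) and 1627 (limma 1034, muscle score 49) in proximal tissue, in the order of the series. In proximal Del(CBS1-2) against WT they were 114 with edgeR, 544 with DESeq2 and 1367 without a count filter. For the other alleles against WT, with 13 genes or fewer, DESeq2 called 25 to 295 and the fit without a filter 250 to 1073.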
